A study of Mus musculus with 6 samples.

Results

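The glutathione system of the mouse oocyte was described with 10 genes, *Gclc*, *Gclm*, *Gss*, *Gsr*, *Gpx1*, *Gpx4*, *Gpx7*, *Gpx8*, *Glrx* and *Glrx2*. They were taken by symbol, through the Ensembl gene identifier, from a table of read counts on 53465 genes. Earlier results of these data were known when the list was chosen. All samples were pools of M II oocytes, which are oocytes arrested at the second meiotic metaphase and ready for fertilization. They came from 9 to 10 months old Kunming (KM) females, an outbred strain used at this age as a model of natural ageing. The 3 control pools were matured in vitro (IVM) without quercetin, a plant flavonol with antioxidant activity, and the 3 quercetin pools with 10 μM of it. In both groups the mice had received pregnant mare serum gonadotropin, the cumulus cells had been pipetted off, and IVM in M16 medium ran for 16 h. Each pool held 15 oocytes from 3 mice, so a value is an average over oocytes and animals. Whether the control medium held the DMSO in which quercetin was dissolved is not given in the sources used here.

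Glutathione is a small peptide of glutamate, cysteine and glycine and the main thiol that cells use against peroxides. It is made in a pair of steps, first by glutamate-cysteine ligase, built from the *Gclc* and *Gclm* products, and then by glutathione synthetase (*Gss*). Glutathione peroxidases spend it to reduce peroxides, glutaredoxins spend it to reduce protein disulfides, and glutathione reductase (*Gsr*) returns the oxidized form to the reduced form with NADPH. Oocytes build up glutathione as they mature, and the sperm chromatin that enters at fertilization is decondensed with its help.

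The pools held 7880467 to 9938743 counts on genes. A gene at 3 counts, taken as the floor of detection, had 0.328 to 0.375 CPM, where CPM is counts scaled to a common library size after TMM. The reads carried no molecular identifiers and were amplified, so this floor covers counting error only. All 10 oocyte markers, such as *Gdf9*, *Bmp15* and the zona pellucida genes, were detected, with a summed level of 15872 to 19298 CPM per pool. The sum hides uneven members. *Zp2* ranged 11.9-fold over the pools (130 to 1556 CPM), *Zp3* 3.55-fold and *Zp1* 3.26-fold, each lowest in pool 1 of both groups. The other oocyte markers ranged 1.34-fold (*Gdf9*) to 1.89-fold (*Nlrp5*). The cause of this spread was not tested. Of 12 cumulus and granulosa markers, 4 (*Amh*, *Foxl2*, *Ptx3* and *Krt18*) were at 0 counts in every pool. The other 8 were detected, with *Has2* at 14 to 49 counts per pool, *Fshr* at 6 to 18 and *Hsd3b1* at 4 to 21. *Inha*, *Gja1* and *Cd44* had 0 to 9 counts. *Tnfaip6* had 0 counts in each control pool and 2, 8 and 4 in the quercetin pools. The list summed to 62.7 to 76.0 CPM in control and 77.0 to 85.5 CPM in quercetin pools, and most of it was *Cyp19a1*, with 584, 486 and 612 counts against 598, 692 and 621. In CPM, *Cyp19a1* had 58.2 to 68.6 in control and 72.9 to 75.7 in quercetin pools. The sum and *Cyp19a1* were thus higher in every quercetin pool than in every control pool, as were 5.42% of all tested genes. The part of these cells in the values below was not tested. The haemoglobin genes *Hba-a1* and *Hbb-bs* were at 0, and the 4 blood and immune markers summed to 2.68 to 3.60 CPM. In pooled oocytes, fewer cells with a transcript and less RNA per cell cannot be told apart.

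Of the 10 genes, 8 had at least 1 count and 5 (*Gclc*, *Gclm*, *Gsr*, *Gpx1* and *Glrx*) had enough counts to be tested. *Gpx7* and *Gpx8* had none, and *Gss*, *Gpx4* and *Glrx2* were detected but too low for the test. With edgeR's quasi-likelihood test and Benjamini-Hochberg adjustment over 11842 genes, 0 of the 5 passed an adjusted p under 0.05, as for 0% of all tested genes. At an unadjusted p under 0.05 the count was also 0 of 5, beside 4.03% of all tested genes, and DESeq2, limma-voom and edgeR's likelihood ratio test called 0 of them as well. The log2 fold change, quercetin over control, was above 0 in 3 of the 5 and below 0 in 2, with a median of 0.15 beside −0.03 over all tested genes. The quercetin pools all lay below the control pools for 1 gene, *Gclc*, beside 5.17% of all tested genes. They all lay above them for none of the 5, beside 5.42%. Nothing says more of the pools than that each joins 3 mice, so p-values measure the spread between pools.

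**Figure D1:**
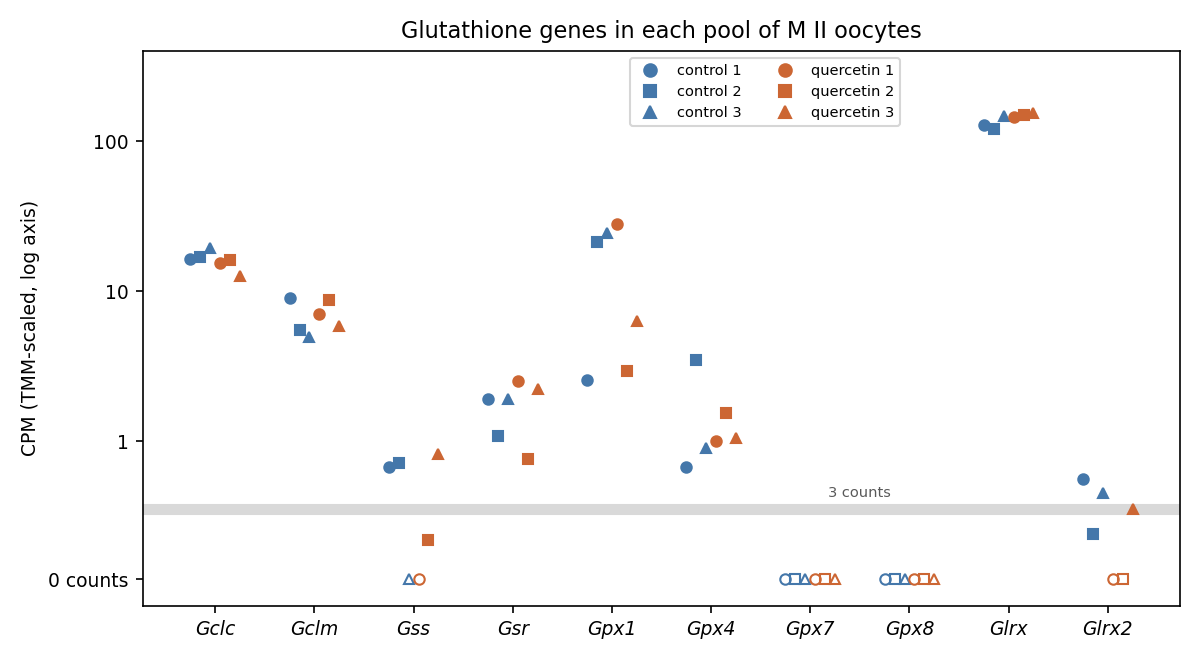
Level of each of the 10 genes in each of the 6 pools, in TMM-scaled CPM on a log axis, with control pools in blue and quercetin pools in orange and the replicate number as the marker shape. Open symbols at the bottom are pools with 0 counts and the grey band is the floor of 3 counts (0.328 to 0.375 CPM). *Glrx* lies above 100 CPM in every pool, *Gpx1* spreads 10.8-fold over the pools with both colours at either end, and *Gpx7* and *Gpx8* are at 0 throughout.

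Transcript levels were compared between genes only after division by the length of each gene's exons, in CPM per kb. In the control pools the order began with *Glrx* at 23.9 ± 2.42 CPM per kb (SD, n = 3), followed by *Gpx1* at 11.1 ± 8.16 and *Gclc* at 4.65 ± 0.413. *Gclm* at 1.03 ± 0.345, *Gpx4* at 0.975 ± 0.904 and *Gsr* at 0.591 ± 0.173 followed, and *Gss* at 0.0783 and *Glrx2* at 0.0474 came last of the detected genes. The place of *Gpx4*, here and below, counts only the reads assigned to it. An intronless copy, *Gpx4-ps2*, drew 285 reads against 74, and the division between them is uncertain. Before division by length, the control mean was 1.68 CPM for *Gpx4* and 8.18 CPM for both summed. The neighbours *Gclm*, *Gpx4* and *Gsr* were not separated by their spread over pools, nor were *Gss* and *Glrx2*, and *Gpx1* ranged from 1.79 to 19.3 CPM per kb and so reached below *Gclc*. *Glrx* was the only one of the 10 whose pools, at 21.9 to 27.8 CPM per kb, all lay above every pool of the other members. Among all tested genes, 84.7% had a lower level per length than *Glrx*, 70.9% a lower one than *Gpx1*, 55.3% than *Gclc*, 25.7% than *Gclm*, 20.5% than *Gpx4* and 15.6% than *Gsr*. The quercetin pools gave the same order, with means of 27.2 for *Glrx*, 8.59 for *Gpx1*, 3.92 for *Gclc*, 1.14 for *Gclm*, 0.693 for *Gpx4* and 0.665 for *Gsr*. Divided by the longest transcript instead, the control level was 31.1 CPM per kb for *Glrx* and 5.11 for *Gclc*, and *Gpx4* (1.69) stood above *Gclm* (1.16). For *Glrx* the choice matters most, since its exons cover 5494 bases and its longest coding transcript has 1345. A level by the coding transcript was not computed.

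**Figure D2:**
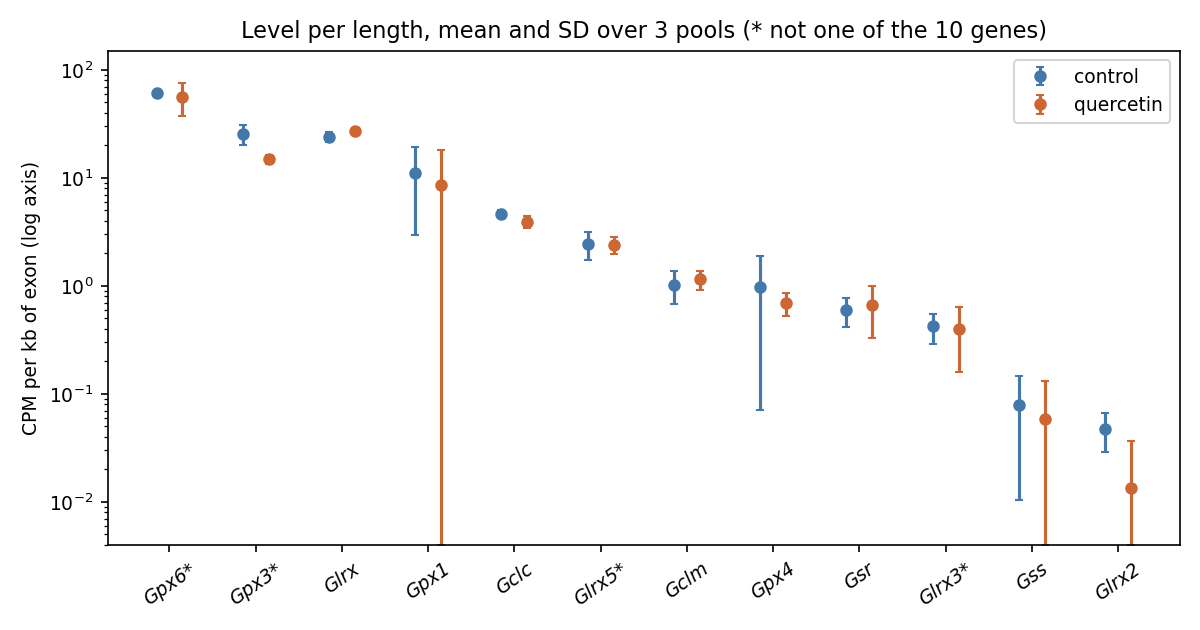
Mean level per length in CPM per kb of exon, on a log axis, with bars of 1 SD over 3 control (blue) and 3 quercetin (orange) pools, for the 8 detected genes and, marked by a star, 4 related peroxidases and glutaredoxins. Bars that reach the lower edge extend to 0 or below. The genes run from *Gpx6* at 60.3 to *Glrx2* at 0.0474 CPM per kb in control pools. The order depends on the length used. By the longest transcript, *Glrx* (31.1) stands above *Gpx3* (29.0) in the control means.

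*Gclc* encodes the catalytic subunit of glutamate-cysteine ligase, the rate-limiting enzyme of glutathione synthesis, and lies on chromosome 9 from 77754535 to 77794485 of GRCm38. It had 16.4, 16.8 and 19.3 CPM in the control pools and 15.5, 16.2 and 12.7 CPM in the quercetin pools, from 108 to 172 counts. All 3 quercetin pools lay below all 3 control pools, but the nearest pools of the groups, at 16.4 and 16.2 CPM, lay close together. The means were 17.5 ± 1.56 and 14.8 ± 1.86 CPM (SD, n = 3 each). On the log2 scale the fold change was −0.24 with a standard error (SE) of 0.21 and a 95% interval of −0.71 to 0.22 (edgeR's quasi-likelihood test, adjusted p = 0.988, unadjusted p = 0.268). With 1 pool left out the log2 fold change ran from −0.31 to −0.14, the latter without quercetin pool 3. An exact permutation test over pools (two-sided, as all below) gave p = 0.1, the smallest that 3 pools against 3 allow.

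*Gclm*, on chromosome 3 from 122245557 to 122270732, encodes the modifier subunit, which lowers the enzyme's need for glutamate and its inhibition by glutathione. It had 8.95, 5.51 and 4.93 CPM in control and 6.99, 8.75 and 5.87 CPM in quercetin pools. The groups overlapped, since control pool 1 was the highest of all 6 and the other control pools were the lowest. A log2 fold change of 0.16 was fitted (SE 0.31, 95% interval −0.55 to 0.86, edgeR adjusted p = 0.990), and without quercetin pool 2 it was −0.0077. Of the exon length of *Gclm*, 4.7% overlaps the genes *Gm17494* and *Gm6061*.

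Since both subunits serve the same enzyme, their ratio was taken within each pool, where library size drops out. *Gclm* per *Gclc*, on the scale of counts per kb, was 0.326, 0.197 and 0.153 without quercetin and 0.270, 0.324 and 0.277 with it. The quercetin pools sat close together, at 0.290 ± 0.0290, within the range of the control pools, at 0.225 ± 0.0898 (SD, n = 3 each). The log2 difference of 0.43 was within the spread between pools (exact permutation p = 0.4), and it was 0.74 without control pool 1 and 0.19 without control pool 3. In every pool, *Gclm* was at less than *Gclc* per length.

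*Gss*, which encodes the enzyme that adds glycine in the last step of synthesis, was detected in some pools only. It had 6, 6 and 0 counts in control and 0, 2 and 7 in quercetin pools, 21 in all. Each group held a pool with 0 counts and the levels overlapped (exact permutation p = 1.0). *Gss* lies at chr2:155563181-155592810, minus strand. Genes on the other strand, *Acss2*, *Gssos1* and *Gssos2*, cover 15.4% of its exon length, and whether counting used the strand is not given, so some of these few reads may belong to them.

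*Gsr*, on chromosome 8 from 33652523 to 33698163, is the reductase that restores glutathione. It had 17, 9 and 17 counts in control and 20, 7 and 19 in quercetin pools, which is 1.63 ± 0.477 and 1.83 ± 0.932 CPM (SD, n = 3 each). The lowest pool in each group was number 2, and the other 4 pools held 17 to 20 counts. Its fitted log2 fold change was 0.15 (SE 0.50, 95% interval −0.98 to 1.29, edgeR adjusted p = 0.995). It was below 0 when control pool 2, quercetin pool 1 or quercetin pool 3 was left out, with values of −0.06, −0.13 and −0.02.

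The 4 peroxidase genes differ in the codon at the active site, which is shown because it sets both what each enzyme needs and how its transcript is read. In *Gpx1* and *Gpx4* the residue that reacts with the peroxide is selenocysteine, written as TGA and read through with a dedicated tRNA. *Gpx7* and *Gpx8* encode endoplasmic reticulum peroxidases with cysteine at this place, so they need no selenium. The lines give 51 coding bases of each transcript from GENCODE release M21 on GRCm38, 5′ to 3′ on the coding strand, with the active-site codon in capitals.
Gpx1: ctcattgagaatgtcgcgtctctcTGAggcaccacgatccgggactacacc
Gpx4: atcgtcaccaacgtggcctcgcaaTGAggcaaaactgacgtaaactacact
Gpx7: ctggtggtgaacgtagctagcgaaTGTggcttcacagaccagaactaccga
Gpx8: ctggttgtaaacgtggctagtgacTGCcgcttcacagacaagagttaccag
The codons lie at chr9:108339451-108339453 on the plus strand in exon 1 of 2 of *Gpx1*, chr10:80054737-80054739 on the plus strand in exon 3 of 7 of *Gpx4*, chr4:108403430-108403432 on the minus strand in exon 2 of 3 of *Gpx7*, and chr13:113045661-113045663 on the minus strand in exon 2 of 3 of *Gpx8*. The annotation marks selenocysteine at the TGA of *Gpx1* and *Gpx4*. Base by base, the *Gpx4* window is shared at 29 of 51 positions with *Gpx1*, at 28 with *Gpx7* and at 25 with *Gpx8*. No 31-base word of the *Gpx1*, *Gpx7* or *Gpx8* transcripts occurs in another annotated gene.

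The pair with a TGA codon was detected and the pair with a cysteine codon was not. *Gpx7* and *Gpx8* had 0 counts in all 6 pools, which allows a level of up to 0.254 to 0.291 CPM per kb for *Gpx7* and 0.313 to 0.357 CPM per kb for *Gpx8*, depending on the pool. No comparison between groups is possible for either gene.

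*Gpx1*, the abundant cytosolic and mitochondrial peroxidase that clears hydrogen peroxide, lies on chromosome 9 from 108338903 to 108340343. It had 23, 178 and 216 counts in the control pools and 223, 27 and 54 counts in the quercetin pools, which is 2.57, 21.3 and 24.2 CPM against 27.8, 2.95 and 6.34 CPM. The highest pool and the second lowest were both quercetin pools, the lowest was a control pool, and the 6 values left a gap between 6.34 and 21.3 CPM with 3 pools on each side. The pools above the gap were control 2, control 3 and quercetin 1, so the gap did not follow the treatment. The means were 16.04 ± 11.8 and 12.4 ± 13.5 CPM (SD, n = 3 each), with a log2 fold change of −0.38 (SE 0.87, 95% interval −2.34 to 1.58, edgeR adjusted p = 0.993). This interval spans 0.198-fold to 2.98-fold and so leaves room for a large difference either way.

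The size of the *Gpx1* difference rested on which pools were in the fit, while its adjusted p stayed above 0.05 throughout. Without quercetin pool 1 the log2 fold change was −1.79 (unadjusted p = 0.0573, edgeR adjusted p = 1.00), and without quercetin pool 2 it was 0.093. The SD of log2 level within groups was 1.72 for *Gpx1* against a median of 0.33 over all tested genes, and 1.22% of tested genes had a larger one. Its highest pool held 10.8 times the CPM of its lowest. By contrast, *Glrx* had a within-group SD of 0.105, smaller than that of 96.5% of tested genes, and *Gclc* one of 0.159, smaller than that of 87.6%. *Gclm* (0.379) was near the middle, while *Gsr* (0.716) and *Gpx4* (0.891) had few reads.

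Among the genes for selenocysteine insertion, *Sepsecs*, whose product makes selenocysteine on its tRNA, spread still more, and it is named because its values were seen to be spread. It had 51, 718 and 773 counts in control and 897, 49 and 997 in quercetin pools. Control pool 1 and quercetin pool 2 were low for both *Gpx1* and *Sepsecs*, and control 2, control 3 and quercetin 1 were high for both. Quercetin pool 3 was among the low pools for *Gpx1* and the highest for *Sepsecs*. The within-group SD of *Sepsecs* was 2.40, its range 21.8-fold, and its log2 fold change 0.39 (SE 1.02), with 0.380% of tested genes having a larger SD. The other tested genes for selenocysteine insertion had within-group SDs of only 0.185 to 0.427. A link between the spread of *Gpx1* and that of *Sepsecs* was not tested. Total counts were 8671210 in control pool 1 and 9938743 in quercetin pool 2, and the part of depth in the spread of these 2 genes was not tested.

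**Figure D3:**
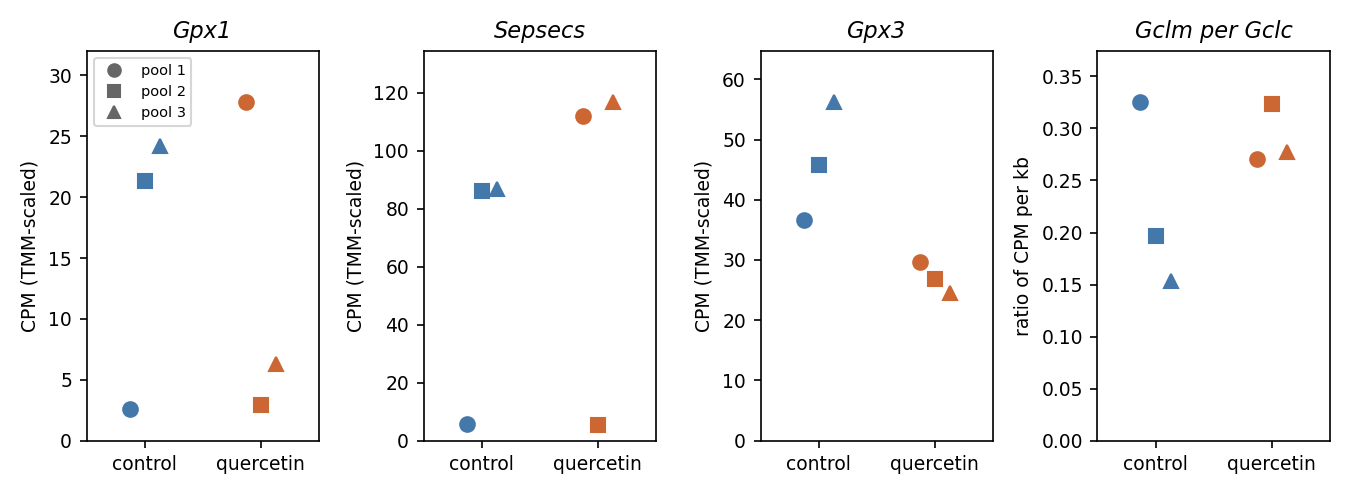
Values in each pool (circle, square and triangle for pools 1, 2 and 3) for *Gpx1*, *Sepsecs* and *Gpx3* in TMM-scaled CPM, and for the ratio of *Gclm* to *Gclc* in counts per kb, with linear axes from 0. *Gpx1* and *Sepsecs* split into high and low pools within both groups, *Gpx3* has all quercetin pools (24.5 to 29.6 CPM) below all control pools (36.6 to 56.3 CPM), and the ratio overlaps between groups.

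*Gpx4*, the peroxidase that reduces lipid peroxides in membranes and restrains ferroptosis, lies on chromosome 10 from 80047166 to 80056439. Its counts were 6, 29 and 8 in control and 8, 14 and 9 in quercetin pools, which is 1.68 ± 1.56 and 1.20 ± 0.292 CPM (SD, n = 3 each). Control pool 2 was the highest and the other 5 pools held 6 to 14 counts, with overlap between the groups (exact permutation p = 1.0). When genes with few counts were kept in the fit, the log2 fold change was −0.46 (SE 0.60, edgeR adjusted p = 0.894).

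More reads were assigned to the processed pseudogene *Gpx4-ps2*, an intronless copy on the same chromosome from 45875291 to 45876086, than to *Gpx4* itself. It had 35, 87 and 46 counts in control and 22, 52 and 43 in quercetin pools, so that *Gpx4* held 74 and the pseudogene 285 of their joint counts, a share of 20.6% for *Gpx4*. The pseudogene exceeded *Gpx4* in each of the 6 pools, with a *Gpx4* share of 14.6% to 26.7%. Its copy of the active-site window matches 50 of 51 bases of *Gpx4*, and is shown because so little sequence in it separates the copies.
Gpx4-ps2: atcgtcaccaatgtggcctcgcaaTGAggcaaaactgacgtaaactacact
The capitals again mark the TGA codon, at chr10:45875468-45875470 on the plus strand. Of the 31-base words in the longest coding transcript of *Gpx4* (995 bases), 66.8% occur in other annotated genes, and of those in the transcripts of *Gpx4-ps2* 89.3% do.

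Since the division of reads between the copies is uncertain, their counts were also added. The sum was 41, 116 and 54 in control and 30, 66 and 52 in quercetin pools, which is 8.18 ± 5.01 and 5.69 ± 1.77 CPM (SD, n = 3 each). Control pool 2 stayed the highest and quercetin pool 1 was the lowest. The groups overlapped (exact permutation p = 0.6), and the summed counts gave a log2 fold change of −0.52 (SE 0.44, edgeR adjusted p = 0.988).

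**Figure D4:**
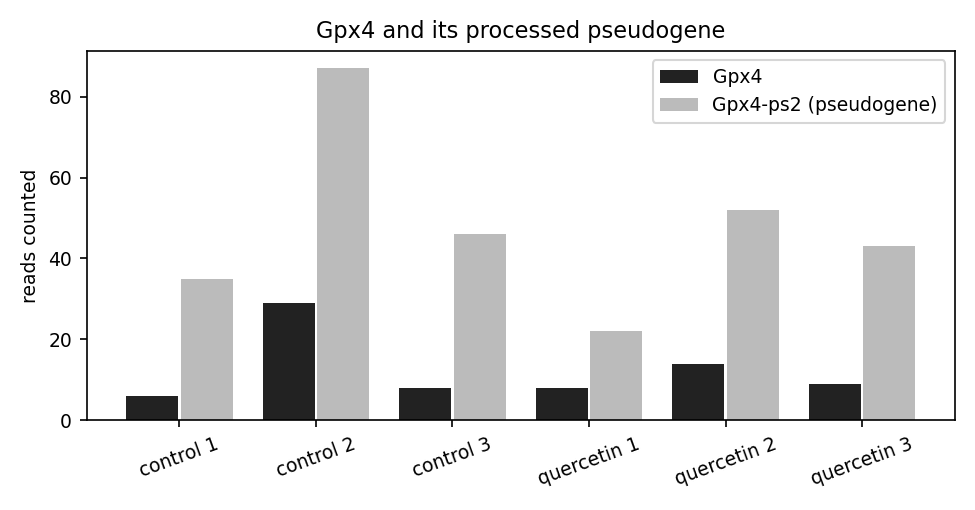
Reads counted on *Gpx4* (black) and on its processed pseudogene *Gpx4-ps2* (grey) in each pool, as bars from 0. The pseudogene has 22 to 87 counts and *Gpx4* 6 to 29, and the grey bar is the taller in all 6 pools.

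The primers listed for *Gpx4* and for the reference gene in the qPCR of the study bear on the same locus, and they are shown to say which transcripts of these pools they can copy. Forward and reverse primers are given 5′ to 3′ in lower case.
Listed as Gpx4, forward: atcccttcgcgcctgtact
Listed as Gpx4, reverse: gtgctcgtagatcgcgtct
Listed as Gapdh, forward: aaatcaaggagtttgcagccgg
Listed as Gapdh, reverse: ttctctatcacctggggctcct
By exact match to the annotated transcripts, the first pair copies 123 bases of *Uqcr10*, a subunit of respiratory complex III, at chr11:4704169-4704291, and no *Gpx4* transcript. *Uqcr10* had 36, 139 and 60 counts in control and 40, 108 and 69 in quercetin pools, with overlapping groups and a log2 fold change of −0.13 (SE 0.51, edgeR adjusted p = 0.996). The second pair copies 229 bases both of *Gpx4*, from exon 4 to exon 7 at chr10:80054987-80056196, and of *Gpx4-ps2* at chr10:45875595-45875823. The pair listed for *Gapdh* therefore matches both *Gpx4* and *Gpx4-ps2*, whose assigned counts are given above. Whether *Gpx4-ps2* was transcribed in these oocytes cannot be told from those counts, since the division of reads is uncertain. *Gapdh* itself had 6 to 9 counts per pool. Look-alike genes were not searched for *Gapdh*, so its counts may leave out reads assigned elsewhere. Which primers were used at the bench cannot be told from the list.

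*Glrx*, on chromosome 13 from 75839868 to 75850154, encodes glutaredoxin 1, the cytosolic enzyme that removes glutathione from protein thiols. It had 1144, 1005 and 1304 counts in control and 1162, 1369 and 1303 in quercetin pools. With 7287 counts over the 6 pools it had the most reads of the 10 genes. The means were 131.5 ± 13.3 CPM in control and 149.2 ± 3.91 CPM in quercetin pools (SD, n = 3 each), and control pool 3 lay above quercetin pool 1. The fit gave a log2 fold change of 0.18 (SE 0.14, 95% interval −0.13 to 0.50, edgeR adjusted p = 0.988, unadjusted p = 0.223), an interval from 0.912-fold to 1.41-fold. It was above 0 with each pool left out, at 0.12 to 0.27.

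*Glrx2* encodes the mitochondrial and nuclear glutaredoxin and lies on chromosome 1 from 143716338 to 143749676. It had 5, 2 and 4 counts in control and 0, 0 and 3 in quercetin pools, 14 in all. A pool with 3 or more counts occurred in both groups, and the level was at or near the floor in each pool (exact permutation p = 0.2). With low genes kept in the fit, the log2 fold change was −1.71 (SE 1.19, edgeR adjusted p = 0.834), which at this depth does not show a difference.

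The other glutathione peroxidases and glutaredoxins were set beside the 10 genes. Of 6, *Gpx2* and *Gpx5* were at 0 in every pool and 4 were tested, all with a log2 fold change below 0 (median −0.09), as had 53.6% of all tested genes. By edgeR 0 of the 4 passed an adjusted p under 0.05 and 1 an unadjusted p under 0.05, the latter beside 4.03% of all tested genes. *Gpx6* and *Gpx3* exceeded *Gpx1* per length in the control means, at 60.3 and 25.5 CPM per kb against 11.1. Every pool of *Gpx6* (44.8 to 77.7 CPM per kb) lay above every pool of *Gpx1* (1.79 to 19.3). The pools of *Gpx3* (13.5 to 31.1) overlapped those of *Gpx1*. The peroxidase transcript of highest level, *Gpx6*, was therefore not among the 10. Their active-site windows, printed as before, show a cysteine codon in *Gpx6* and a selenocysteine codon in *Gpx3*.
Gpx3: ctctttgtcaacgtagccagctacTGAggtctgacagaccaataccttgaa
Gpx6: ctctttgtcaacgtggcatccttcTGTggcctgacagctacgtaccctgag
The codons are at chr11:54907256-54907258 in exon 2 of 5 of *Gpx3* and at chr13:21313777-21313779 in exon 2 of 5 of *Gpx6*, both on the plus strand. The detected peroxidases therefore held both codon types, *Gpx1*, *Gpx3* and *Gpx4* with TGA and *Gpx6* with TGT.

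*Gpx3*, a secreted peroxidase, had 327, 382 and 502 counts in control and 237, 245 and 209 in quercetin pools. The means were 46.2 ± 9.87 and 27.0 ± 2.54 CPM (SD, n = 3 each), and all quercetin pools lay below all control pools. The log2 fold change was −0.78 (SE 0.21, 95% interval −1.25 to −0.30), with an unadjusted p of 0.00501 and an adjusted p of 0.988 by edgeR's quasi-likelihood test, so it did not pass the correction. It stayed below 0 with each pool left out, at −0.92 to −0.60. *Gpx6* had 680, 741 and 737 counts in control and 491, 972 and 535 in quercetin pools, and the quercetin pools lay on both sides of the control pools (log2 fold change −0.10, SE 0.23, edgeR adjusted p = 0.993). The iron-sulfur glutaredoxins *Glrx5* (−0.04, SE 0.29) and *Glrx3* (−0.07, SE 0.50) had log2 fold changes near 0, with an adjusted p of 0.999 for each.

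**Figure D5:**
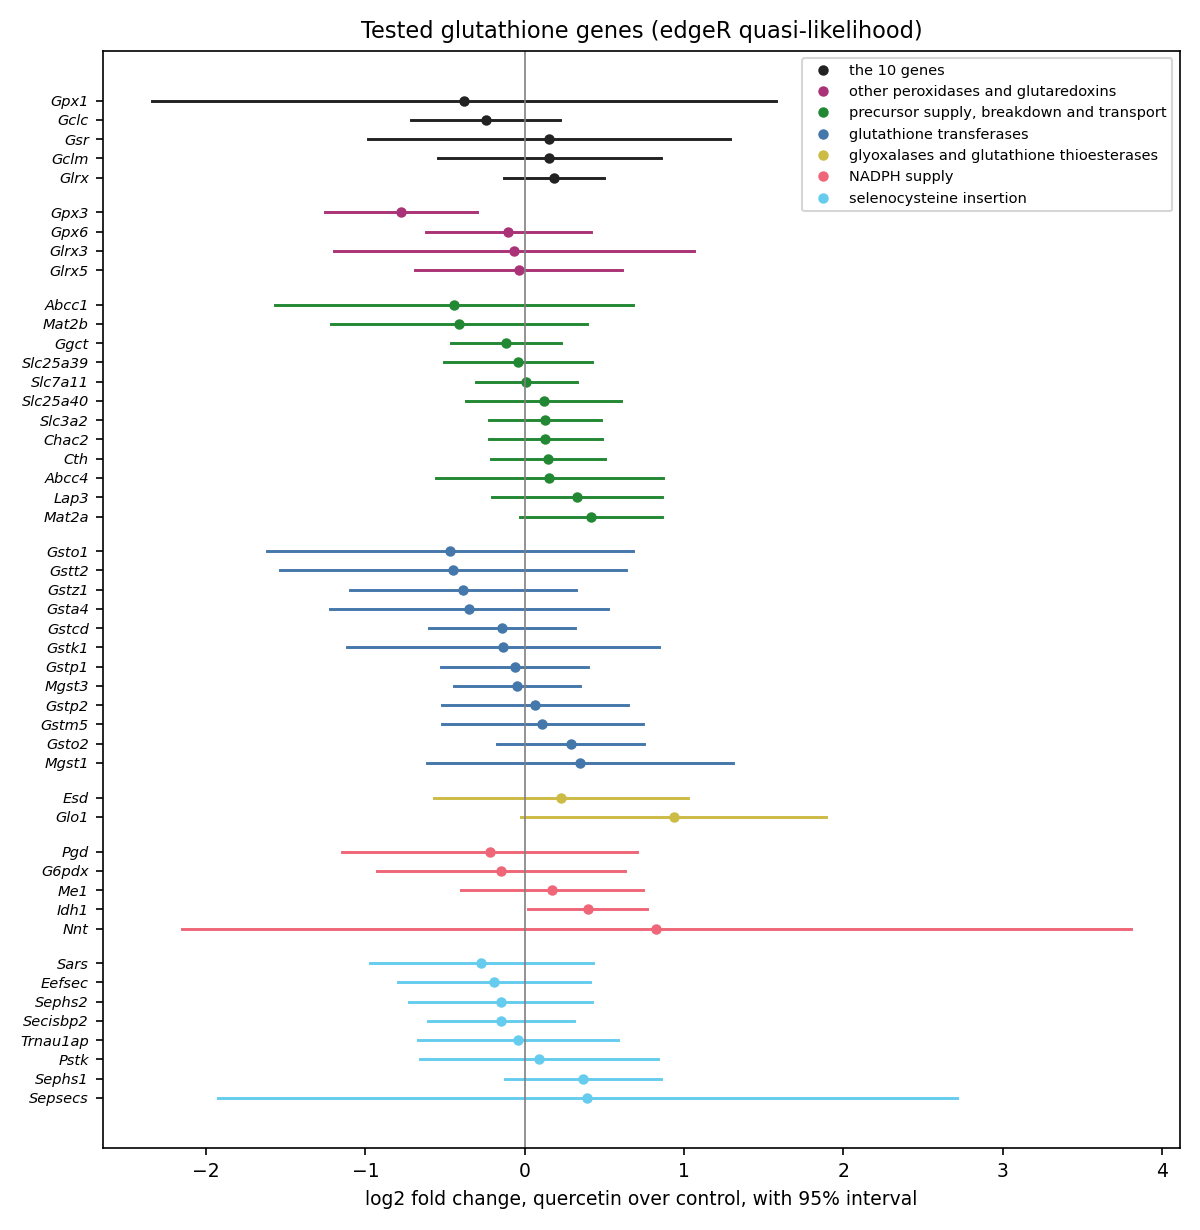
Log2 fold change, quercetin over control, with its 95% interval from edgeR's quasi-likelihood fit, for the 5 tested genes of the 10 (black) and 43 other tested genes of glutathione metabolism, coloured by list and ordered by value within it. The interval of *Gpx1* runs from −2.34 to 1.58, and of the other genes, *Gpx3* (−0.78) and *Idh1* (0.40) have intervals that leave out 0 before correction for the number of genes.

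Around these genes, 74 other genes of glutathione metabolism were listed, of which 66 were detected and 43 tested. By edgeR, 0 of 43 passed an adjusted p under 0.05, beside 0% of all tested genes, and DESeq2, limma-voom and the likelihood ratio test also called 0. At an unadjusted p under 0.05, 1 was higher (*Idh1*) and 1 lower (*Gpx3*), beside 4.03% of all tested genes. Of the 43, 20 had a log2 fold change above 0 and 23 below, with a median of −0.04, near the −0.03 of all tested genes. The quercetin pools all lay above the control pools for 4 of the 43 (*Mat2a*, *Lap3*, *Glo1* and *Idh1*), beside 5.42%, and all below for 1 (*Gpx3*), beside 5.17%. The genes with the highest level per length over all pools were *Mgst3*, a membrane-bound glutathione transferase, at 753.6 CPM per kb, *Mat2b*, a regulator of methionine adenosyltransferase, at 662.6, and the transferase *Gstm5* at 278.6, all above the highest pool of *Glrx* at 27.8. This order depends on the length used. Divided by the longest transcript, the control levels were 1537 for *Mat2b*, 765.4 for *Mgst3*, 480.0 for *Ggct*, which comes next by that length, and 316.1 for *Gstm5*.

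*Idh1*, cytosolic isocitrate dehydrogenase, supplies NADPH of the kind that *Gsr* uses. It had 833, 600 and 857 counts in control and 907, 1138 and 903 in quercetin pools, which is 87.1 ± 13.2 and 114.5 ± 9.31 CPM (SD, n = 3 each). All quercetin pools lay above all control pools. The log2 fold change was 0.40 (SE 0.16), with an unadjusted p of 0.0394 and an adjusted p of 0.988 by edgeR. Its unadjusted p was above 0.05 by the likelihood ratio test (0.0668), with library size only (0.0598), with the replicate number as a block (0.0612), and without control pool 1 (0.0534), control pool 2 (0.151), quercetin pool 1 (0.0780) or quercetin pool 2 (0.110). By list, the median log2 fold change was 0.12 for 12 tested genes of precursor supply, breakdown and transport, −0.10 for 12 transferases, 0.58 for 2 glyoxalases and thioesterases, 0.17 for 5 NADPH genes and −0.10 for 8 genes of selenocysteine insertion.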

How the data were processed

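RNA from 6 pools of M II oocytes (3 control, 3 quercetin) was made into full-length cDNA with the Smart-seq HT Kit. The authors deposited counts, whole numbers of reads per Ensembl gene, with no normalization or pooling. The submitters' processing notes name CASAVA 1.8, TopHat2 2.0.6 and GRCm38 (mm10), while the study's methods name Hisat2 on GRCm38. The counting program, its use of strand and its treatment of reads that match several genes are not given in the sources used here, and affect genes with copies (*Gpx4*) or opposite-strand neighbours (*Gss*).

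Groups came from the sample labels, and pool size, culture time and medium from the methods. Symbols matched 53274 of 53465 identifiers. Genes passing filterByExpr (minimum count 10, about 3 pools) in edgeR 4.0.16 were scaled by TMM. They were compared by glmQLFit and glmQLFTest in R 4.3.3, with Benjamini-Hochberg adjustment. The fit was also run on simulated counts with set changes, as a check of the code. Such a run cannot show how well the model suits these amplified pools. Single values were compared by two-sided exact permutation tests on log2 values (0.5 added to counts). Lengths, coordinates, overlaps and shared 31-base words came from GENCODE release M21 on GRCm38, read with Python 3.11.15, numpy 2.4.6 and pandas 2.3.3, and plots used matplotlib 3.10.9. Primers from the study's list were matched without mismatches.

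The 10 genes and the other lists were chosen with earlier results of these data known. Named were all 10 and, of the other glutathione genes, those with an unadjusted p under 0.05, the 3 of highest level per length, and the remaining peroxidases and glutaredoxins. *Gpx4-ps2*, *Uqcr10*, *Gapdh*, *Sepsecs*, *Ggct*, *Mat2a*, *Lap3* and *Glo1* were named after their values were seen. Alternatives were DESeq2 1.42.0, limma-voom (limma 3.58.1), the likelihood ratio test, other scalings and filters, the replicate block, each pool left out, counts summed with look-alike genes, and the longest transcript as length.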

Additional observations from a re-analysis of the deposited data

How the results depend on the processing

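None of the 10 genes was called in any setting run, and for the 5 tested ones, *Idh1* and the 4 related peroxidases and glutaredoxins no direction changed under another test, scaling, filter or block. *Gsr* and *Glrx3* had too few counts for the filter of 10 in every pool, and summing with look-alike genes altered the counts of *Gpx4* alone among the 10. Over all genes the count of calls was 0 by edgeR's quasi-likelihood test, 477 without adjustment, 17 by DESeq2, 18 by the likelihood ratio test, 3 with all genes of at least 1 count, and 0 to 7 with 1 pool left out. For the other glutathione genes it was 2 without adjustment and otherwise 0. With 1 pool left out, log2 fold changes that changed sign ran from −0.0077 to 0.47 for *Gclm*, −0.13 to 0.53 for *Gsr*, −1.79 to 0.093 for *Gpx1*, −0.41 to 0.037 for *Gpx6*, −0.61 to 0.28 for *Glrx3* and −0.23 to 0.19 for *Glrx5*, and the cause was not tested. With the longest transcript as length, control levels of the 8 detected genes rose, because the divisor is shorter. The rise was more than the SD over control pools for *Glrx* (to 31.1 CPM per kb), *Gclc* (5.11) and *Glrx2* (0.106). It was less than that SD for *Gpx1* (15.0), *Gpx4* (1.69), *Gclm* (1.16), *Gsr* (0.609) and *Gss* (0.142). The labels number the pools 1 to 3 in both groups. Across genes, deviations of same-numbered pools from their group means had r of 0.31, 0.08 and −0.03. Pools of differing number had r of −0.31 to 0.20. Deviations from a mean of 3 pools are tied to each other, so these values cannot decide whether same-numbered pools belong together. Shared mice or a shared batch were not tested. With the replicate block, 0 genes were called, and *Gpx1* had a log2 fold change of −0.79 in place of −0.38. Depth limits *Gss*, *Gpx4*, *Gsr* and *Glrx2*, which had 14 to 89 counts in all 6 pools together. The count of *Gpx4* also depends on how reads were divided between it and *Gpx4-ps2*.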

Other observations

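*Nnt*, the mitochondrial transhydrogenase that makes NADPH for glutathione reduction, was counted in some pools and not in others, and is named because of these values. It had 111, 0 and 66 counts in control and 208, 0 and 81 in quercetin pools, so that pool 2 of each group held none. A second gene entry for *Nnt* shares 96.4% of the 31-base words of its longest coding transcript, and the assignment of reads between the entries is uncertain. The log2 fold change of 0.83 therefore rests on few and uneven pools.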
